A study of Mus musculus with 6 samples.

Results

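Integrins are receptors that join cells to the extracellular matrix. Each is a pair of an alpha and a beta chain, and the alpha chain largely sets which matrix protein is bound. Dystroglycan, encoded by Dag1, is a further laminin receptor, which carries long sugar chains and links laminin to dystrophin and the actin skeleton. In the early mouse embryo, integrins that hold the beta1 chain and their laminin ligands are known for the adhesion of the inner cell mass and for the basement membrane that forms between primitive endoderm and epiblast. Described here are 10 genes of this kind, chosen by symbol among the 38561 genes of the deposited count table: the alpha chains Itga3, Itga5, Itga6, Itga7, Itga9 and Itgav, the beta chains Itgb1, Itgb3 and Itgb5, and Dag1. All 10 were found, and 9 had enough reads to be tested. Itga7 had not. The members and the lists of partner genes below were chosen with earlier results of these data known. Counts of called genes thus describe these sets in every comparison and are no test of them.

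The cells were mouse ESCs (embryonic stem cells) with the background 129X1/SvJ x 129S1/Sv, at passages 13 to 17, labelled undifferentiated and grown without feeder cells on gelatin with serum replacement and leukemia inhibitory factor. They were sorted by flow cytometry into 3 fractions, with 100000 sorted events each: PECAM1minPDGFRaplus (called PDGFRa-only here), PECAM1plusPDGFRamin (PECAM1-only) and PECAM1plusPDGFRaplus (double-positive). PECAM1 is an adhesion protein carried by undifferentiated ESCs, and PDGFRa is a receptor for platelet-derived growth factor carried by primitive endoderm precursors. Amplified RNA of each fraction was sequenced in 2 libraries, 6 in all. Their titles end in Exp1 and Exp2 in each of the 3 fractions, called replicates 1 and 2 here. Beyond these titles, the labels do not say whether Exp1 and Exp2 are separate cultures or whether same-numbered libraries share a sort. Each p thus measures the spread between these libraries alone, which may be technical.

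The libraries held 4809661 to 7273669 counts. The genes of the sorting proteins followed the labels: Pecam1 had 154 ± 16.3 CPM (counts per 10 to the power of 6, on the scaled library size) in the PECAM1-only fraction and 1.54 ± 0.0430 CPM in the PDGFRa-only fraction, and Pdgfra had 1.96 ± 0.111 and 557 ± 68.2 CPM in the same order (SD, n = 2). In the double-positive fraction Pecam1 had 49.4 ± 6.30 CPM, below the PECAM1-only level. Pdgfra had 535 ± 24.1 CPM there, within the range of the PDGFRa-only libraries. All 8 markers of primitive endoderm were tested, with a summed level of 228 to 261 CPM in the PECAM1-only, 9591 to 10382 CPM in the double-positive and 12212 to 14412 CPM in the PDGFRa-only libraries. The 8 markers of naive pluripotency summed to 1148 to 1166, 436 to 499.8 and 245 to 249 CPM in the same order. Markers of other cells that carry integrins were lower. The 8 fibroblast genes summed to 7.72 to 10.3, 6.92 to 17.8 and 2.69 to 10.1 CPM, with Twist2 at 0 counts. Of the 2 fibroblast genes tested between the single-positive fractions, 1 rose and 0 fell. Col1a2 had 2 reads in the PECAM1-only, 35 in the double-positive and 37 in the PDGFRa-only fraction, and Col1a1 had 12, 13 and 3. The 8 endothelial and blood genes summed to 14.7 to 16.2, 68.2 to 84.0 and 84.9 to 134 CPM. Between the single-positive fractions 3 of them were tested, of which 2 rose and 0 fell. Cdh5 had 1 read in the PECAM1-only, 692 in the double-positive and 924 in the PDGFRa-only fraction. Gata1 and Tal1 had 10 and 13 reads in the PECAM1-only and 0 in the PDGFRa-only fraction. Emcn and Ptprc had 0 counts in all 6 libraries. The 8 trophoblast genes summed to 54.4 to 56.9, 84.3 to 88.2 and 93.4 to 118 CPM, with 3 tested; Tead4 rose from 10.9 ± 1.43 to 98.1 ± 15.5 CPM and Tfap2c fell from 32.1 ± 2.01 to 0.565 ± 0.482 CPM (single-positive fractions). The part of these marker differences in the results that follow was not tested. In bulk RNA of a sorted fraction, fewer cells that express a gene and less RNA per cell cannot be told apart.

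Between the single-positive fractions, the receptors split. Itga5, Itgav, Itga3 and Itgb1 were higher in the PDGFRa-only fraction, by 1.96-fold to 2.55-fold, and Itga6, Dag1, Itga9 and Itgb3 were lower, Itga6 and Dag1 by under 3-fold and Itga9 and Itgb3 by more. Itgb5 did not pass the test. Thus 8 of 9 tested members were called, 4 in each direction, where 59.0% of all 13909 tested genes were called, 30.1% higher and 28.8% lower. As the members were chosen with earlier results known, this count describes the set only. The median log2 fold change of the 9 was -0.11, against 0.01 over all tested genes. Log2 fold changes are given with a standard error, and adjusted p-values come from edgeR's quasi-likelihood test with Benjamini-Hochberg adjustment over all tested genes at a threshold of 0.05.

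**Figure D1:**
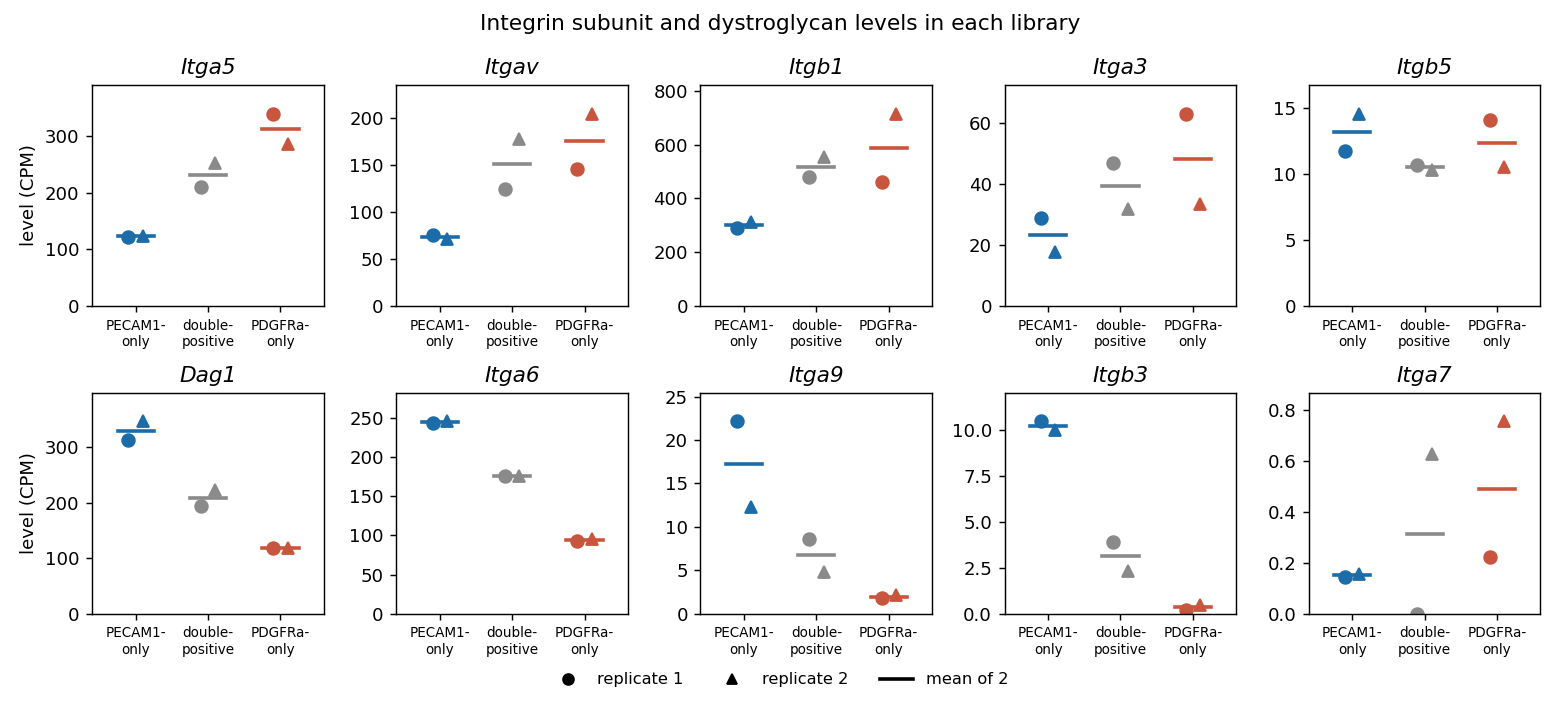
Level in CPM (y axis, linear from 0, own scale per gene) of each member in the PECAM1-only, double-positive and PDGFRa-only fractions (x axis); circles and triangles are replicates 1 and 2 and bars the mean of 2. Itga6 falls in steps from 243 and 246 to 93.2 and 95.3 CPM, while Itga5 rises from 121 and 124 to 339 and 286 CPM.

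Itga5 encodes the alpha chain of the classical fibronectin receptor, which pairs with beta1 (ENSMUSG00000000555, chromosome 15, 103344286 to 103366763, on GRCm38 as are all positions here). Its level was 121 and 124 CPM in the PECAM1-only libraries, 209 and 252 CPM in the double-positive libraries and 339 and 286 CPM in the PDGFRa-only libraries. The fractions did not overlap, and the double-positive libraries lay between the others. The log2 fold change between PDGFRa-only and PECAM1-only was 1.35 ± 0.16 (SE; adjusted p = 4.13e-07), that between double-positive and PECAM1-only 0.91 ± 0.16 (adjusted p = 0.000121).

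Itgav encodes the chain that joins beta1, beta3, beta5, beta6 or beta8 to bind fibronectin, vitronectin and latent TGF-beta (ENSMUSG00000027087, chromosome 2, 83724397 to 83806916). It had 76.1 and 71.3 CPM in the PECAM1-only, 125 and 178 CPM in the double-positive and 146 and 205 CPM in the PDGFRa-only libraries. Both PDGFRa-positive fractions lay above the PECAM1-only fraction and overlapped each other. Against PECAM1-only, the log2 fold change was 1.25 ± 0.19 in the PDGFRa-only fraction (adjusted p = 1.01e-05) and 1.04 ± 0.19 in the double-positive fraction (adjusted p = 0.000186). In the annotation, 634 exonic bases of Itgav are shared with Gm13684, a noncoding transcript on the other strand with 47 counts in all, against 4919 for Itgav; whether the counting used strand is not stated.

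Itgb1 encodes the common partner of most alpha chains described here (ENSMUSG00000025809, chromosome 8, 128685654 to 128733200). It had 289.5 and 311 CPM in the PECAM1-only, 480.2 and 553 CPM in the double-positive and 462 and 715 CPM in the PDGFRa-only libraries. The PDGFRa-only libraries differed most from each other and spanned the double-positive pair, and all 4 PDGFRa-positive libraries lay above the PECAM1-only libraries. Itgb1 was higher than in PECAM1-only by a log2 fold change of 0.97 ± 0.18 in PDGFRa-only (adjusted p = 0.000120) and 0.78 ± 0.18 in double-positive (adjusted p = 0.00190); the first was 0.63 when PDGFRa-only replicate 2 was left out.

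Itga3 encodes a laminin-binding chain that pairs with beta1 (ENSMUSG00000001507, chromosome 11, 95044474 to 95076801). Its libraries were uneven, with 28.8 and 17.7 CPM in the PECAM1-only, 46.9 and 31.8 CPM in the double-positive and 62.9 and 33.4 CPM in the PDGFRa-only fraction. In each fraction replicate 1 was the higher, and the PECAM1-only libraries lay below the other 4. Between PDGFRa-only and PECAM1-only the log2 fold change was 1.03 ± 0.29 (adjusted p = 0.00579). It no longer passed in 3 of 15 alternatives, among them the fits without PDGFRa-only replicate 1, at 0.53, and without PECAM1-only replicate 2, at 0.73.

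Among the receptors that were lower in the PDGFRa-only fraction, Itga6 encodes the laminin-binding chain of the beta1 and beta4 integrins (ENSMUSG00000027111, chromosome 2, 71745616 to 71858416). It had 243 and 246 CPM in the PECAM1-only, 177 and 176 CPM in the double-positive and 93.2 and 95.3 CPM in the PDGFRa-only libraries. The 3 fractions did not overlap and descended in that order. Between the single-positive fractions the log2 fold change was -1.37 ± 0.15 (adjusted p = 1.39e-07), with a mean PDGFRa-only level of 38.5% of the PECAM1-only level.

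Dag1 (ENSMUSG00000039952, chromosome 9, 108204634 to 108263958) had 313 and 346 CPM in the PECAM1-only, 195 and 223 CPM in the double-positive and 119 and 119 CPM in the PDGFRa-only libraries. Again the fractions did not overlap. Its log2 fold change was -1.47 ± 0.16 between the single-positive fractions (adjusted p = 7.70e-08), and the mean PDGFRa-only level was 36.0% of the PECAM1-only level.

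Itga9 encodes a beta1 partner that binds tenascin-C and osteopontin (ENSMUSG00000039115, chromosome 9, 118606690 to 118901003). It had 22.1 and 12.2 CPM in the PECAM1-only, 8.65 and 4.85 CPM in the double-positive and 1.80 and 2.11 CPM in the PDGFRa-only libraries, the last from 8 and 14 reads. No fraction overlapped another. The log2 fold change was -3.11 ± 0.39 between the single-positive fractions (adjusted p = 8.33e-07), and by counting alone the PECAM1-only level was 8.74 times the PDGFRa-only level (95% interval 5.63 to 14.2, exact, counting error only).

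Itgb3 encodes the partner of alphav in the vitronectin receptor and of the platelet chain Itga2b (ENSMUSG00000020689, chromosome 11, 104608000 to 104670476). In the main fit it had the largest log2 fold change of the 9 tested members between the single-positive fractions. Its level was 10.5 and 10.04 CPM in the PECAM1-only, 3.93 and 2.35 CPM in the double-positive and 0.224 and 0.453 CPM in the PDGFRa-only libraries. The PDGFRa-only values are 1 and 3 reads, against 72 and 64 reads in the PECAM1-only libraries. The fit gave -4.76 ± 0.53 on the log2 scale (adjusted p = 1.25e-07), and the counting ratio was 28.4 (95% interval 10.8 to 106). On the log2(RPKM + 1) scale of the deposited RPKM, Itgb3 was at -1.69 and Dag1 at -2.01. The added 1 shrinks differences between low values more than between high ones. Itgb3, a low gene, and Dag1, a high one, thus cannot be ranked on that scale.

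Itgb5, whose product also joins alphav to bind vitronectin, had 11.8 and 14.6 CPM in the PECAM1-only, 10.7 and 10.3 CPM in the double-positive and 14.1 and 10.6 CPM in the PDGFRa-only libraries (ENSMUSG00000022817, chromosome 16, 33829665 to 33949338). The single-positive fractions overlapped. The log2 fold change between them was -0.11, with a 95% interval of -0.64 to 0.42 (adjusted p = 0.739). Against PECAM1-only, the double-positive fraction was at -0.32 (interval -0.85 to 0.21, adjusted p = 0.340). Itga7, a laminin-binding chain known from muscle, had 12 counts over all 6 libraries, from 0 to 5 in each, and was not tested with the other members (ENSMUSG00000025348, chromosome 10, 128933818 to 128958282). Fitted with no count filter, it was at 1.71 between the single-positive fractions, with a 95% interval of -0.82 to 4.24 (adjusted p = 0.346).

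The start regions of 3 members with opposite differences are shown, so that the letters upstream of genes that rose can be set beside those of one that fell. Each is the 250 bases before an annotated start, 5′ to 3′ on the gene's strand, from RefSeq on GRCm38.p6; capitals mark the GC box GGGCGG and the CCAAT box CCAAT, on either strand.
Itga5, chr15:103366792-103367041, minus strand: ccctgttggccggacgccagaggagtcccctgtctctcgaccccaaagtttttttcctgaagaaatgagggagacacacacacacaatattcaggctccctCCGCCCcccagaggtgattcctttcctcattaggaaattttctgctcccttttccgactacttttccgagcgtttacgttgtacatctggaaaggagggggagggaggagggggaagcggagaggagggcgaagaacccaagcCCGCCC
Itgav, chr2:83724147-83724396, plus strand: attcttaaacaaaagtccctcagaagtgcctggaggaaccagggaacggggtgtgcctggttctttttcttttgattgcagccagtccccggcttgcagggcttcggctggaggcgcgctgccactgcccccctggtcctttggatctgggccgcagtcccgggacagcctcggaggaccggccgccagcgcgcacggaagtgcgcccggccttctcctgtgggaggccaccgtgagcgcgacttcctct
Dag1, chr9:108263959-108264208, minus strand: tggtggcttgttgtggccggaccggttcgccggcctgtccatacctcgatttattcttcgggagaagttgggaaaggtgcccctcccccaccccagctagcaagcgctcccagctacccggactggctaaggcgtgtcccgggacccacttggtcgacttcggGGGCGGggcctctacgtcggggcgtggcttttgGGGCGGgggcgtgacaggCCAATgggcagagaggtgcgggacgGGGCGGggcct
The Dag1 window held 3 GC boxes and 1 CCAAT box, the Itga5 window 2 GC boxes and the Itgav window neither. Windows of members that are not shown held GC boxes too. The Itga3 windows held 3 and 1, the Itgb1 window 1 and the Itgb5 window 3. A second, overlapping Dag1 window held 3 GC boxes and 2 CCAAT boxes. The second Itga3 window, at a start inside the gene, held 1 CCAAT box, and the Itga9 window, also at an internal start, held neither box. No window was at hand for Itga6, Itga7 and Itgb3. Of the members that fell, only Dag1 thus had a window at the outer start of the gene. Of 32851 such windows of all genes, 32.7% held a GC box and 33.9% a CCAAT box. The letters AGATAA, read by GATA factors, and TGACTCA, read by AP-1, were in none of the 3 windows shown and in 9.99% and 4.46% of all windows. The GC content was 55.6% for Itga5, 64.4% for Itgav and 67.6% for Dag1, against a median of 52.4%. A match or its lack is a description of these letters only.

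The double-positive fraction was compared with each single-positive fraction to ask where its receptors lay. Against PECAM1-only, Itga5, Itgav, Itgb1 and Itga3 were higher and Itga6, Dag1, Itga9 and Itgb3 lower, 8 of 9 tested, where 38.2% of all tested genes were called (21.8% higher, 16.4% lower); this comparison shares the PECAM1-only libraries with the one before. The median log2 fold change of the 9 was -0.32, against -0.01 over all tested genes. Itga6 was at -0.47 ± 0.15 (adjusted p = 0.0164) and Dag1 at -0.66 ± 0.15 (adjusted p = 0.00186). Itga9 was at -1.35 ± 0.32 (adjusted p = 0.00205) and Itgb3 at -1.70 ± 0.35 (adjusted p = 0.000619). Itga3, at 0.75 ± 0.29 (adjusted p = 0.0494), was at the threshold and was lost with each of the 3 other scalings (adjusted p = 0.0746 to 0.153), with DESeq2 (adjusted p = 0.0945) and when PECAM1-only replicate 2 (0.46) or double-positive replicate 1 (0.47) was left out. It was also lost with a minimum count of 50 (adjusted p = 0.0621) and with RPKM (adjusted p = 0.279), and it passed with the replicate block (adjusted p = 0.00219) and with the 2 fractions fitted alone (adjusted p = 0.0109). When each library was left out in turn, 5 to 8 members were called, the fewest without double-positive replicate 1. Itga6 was lost without any of the 4 libraries compared, at -0.46 to -0.45 (adjusted p = 0.0889 to 0.136). Itga9 was lost without PECAM1-only replicate 1 (-0.83, adjusted p = 0.132) and without double-positive replicate 2 (-0.98, adjusted p = 0.0514), and Dag1 without double-positive replicate 1 (-0.54, adjusted p = 0.0685).

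Against the double-positive fraction, the PDGFRa-only fraction was lower in Itga6, Dag1, Itga9 and Itgb3 and, by edgeR's test, higher in 0 of the members (1 at an unadjusted p under 0.05, Itga5, and 0 by DESeq2). Those are 4 of 9 tested, where 17.6% of all tested genes were called, 11.7% lower and 5.94% higher. The median log2 fold change of the 9 was 0.19, against -7.26e-05 over all tested genes. Itga6 was at -0.90 ± 0.15 (adjusted p = 0.000263) and Dag1 at -0.82 ± 0.16 (adjusted p = 0.000950). Itga9 was at -1.76 ± 0.43 (adjusted p = 0.00711) and Itgb3 at -3.06 ± 0.62 (adjusted p = 0.00162). Itga9 was lost without double-positive replicate 1 (-1.29, adjusted p = 0.114). Of the receptors that were high in both PDGFRa-positive fractions, Itga5 was at 0.44 with a 95% interval of 0.10 to 0.77 (adjusted p = 0.0628). It passed with the DESeq2 size factors (adjusted p = 0.0469), and also when PDGFRa-only replicate 2 was left out (adjusted p = 0.0115). Itgav was at 0.21 (interval -0.18 to 0.60), Itgb1 at 0.19 (-0.19 to 0.57) and Itga3 at 0.27 (-0.32 to 0.87), with adjusted p of 0.474, 0.522 and 0.552. Itgb1 passed without PDGFRa-only replicate 1, at 0.47 (adjusted p = 0.0271).

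**Figure D2:**
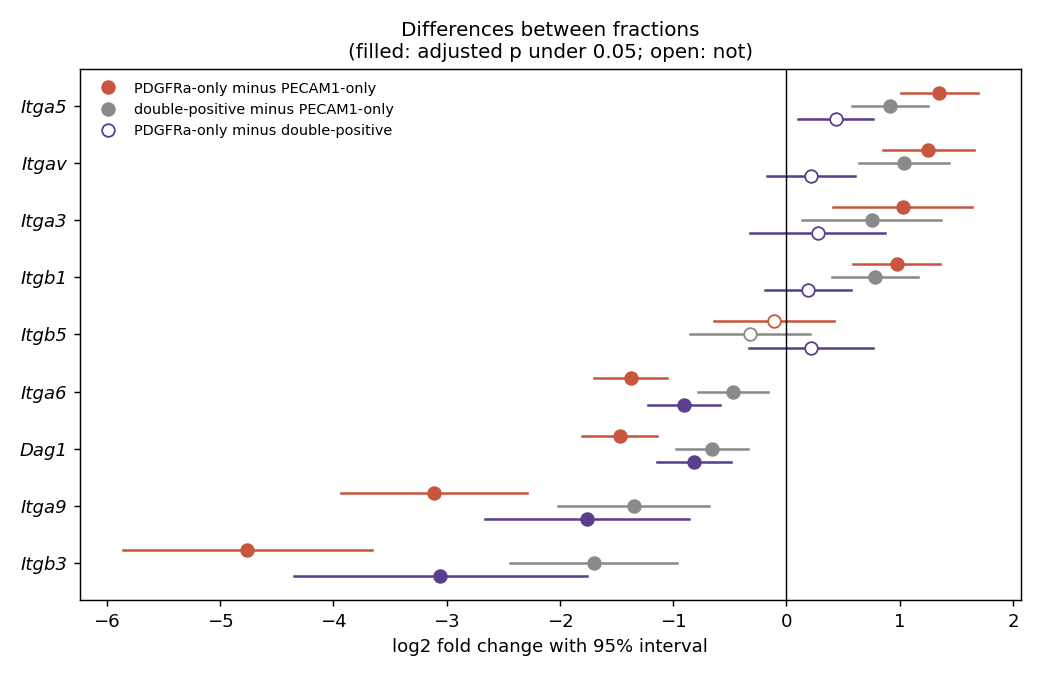
Log2 fold change (x axis) of the 9 tested members in the 3 comparisons, with 95% intervals from the quasi-likelihood fit; filled points have an adjusted p under 0.05. Itga6, Dag1, Itga9 and Itgb3 are filled in all 3 comparisons, and Itga5, Itgav, Itga3 and Itgb1 in the 2 comparisons with the PECAM1-only fraction.

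On the log2 scale of mean CPM, the double-positive level lay 34.2% of the way from PECAM1-only to PDGFRa-only for Itga6, 34.7% for Itgb3, 43.0% for Itga9 and 44.6% for Dag1. It lay 67.6% of the way for Itga5, 72.2% for Itga3, 80.6% for Itgb1 and 83.2% for Itgav. For Itgb5 the double-positive mean lay below both single-positive means. These places are descriptions of means of 2 libraries and were not tested against each other; 5 members, namely Itga5, Itga6, Itga9, Itgb3 and Dag1, had 3 fractions without overlap, which also held for 44.3% of all tested genes.

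Ratios of 2 members within a library do not depend on how libraries are scaled. The ratio of Itga5 to Itga6 reads was 0.498 and 0.504 in the PECAM1-only, 1.18 and 1.43 in the double-positive and 3.64 and 3.002 in the PDGFRa-only libraries. The ratio of Dag1 to Itgb1 reads went the other way, from 1.08 and 1.11 through 0.406 and 0.404 to 0.257 and 0.166. Neither ratio overlapped between fractions. The ratio of Itgav to Itgb3 was 7.26 and 7.11 in the PECAM1-only and 31.8 and 75.9 in the double-positive libraries. In the PDGFRa-only libraries it was 651 and 452, which rests on the few Itgb3 reads there. By contrast Itga6 and Dag1 kept to a narrow band, with 0.709 to 0.906 reads of Itga6 per read of Dag1 over all 6 libraries. The ratio of Itgav to Itgb5 was 6.46 and 4.89 in the PECAM1-only and 11.7 and 17.3 in the double-positive libraries. In the PDGFRa-only libraries it was 10.3 and 19.4, which spanned the double-positive pair. These ratios restate the differences of their members given above, and no share over other gene pairs was computed. With 2 libraries against 2, an exact permutation test cannot go below 1 in 3, and no test of these ratios was made.

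**Figure D3:**
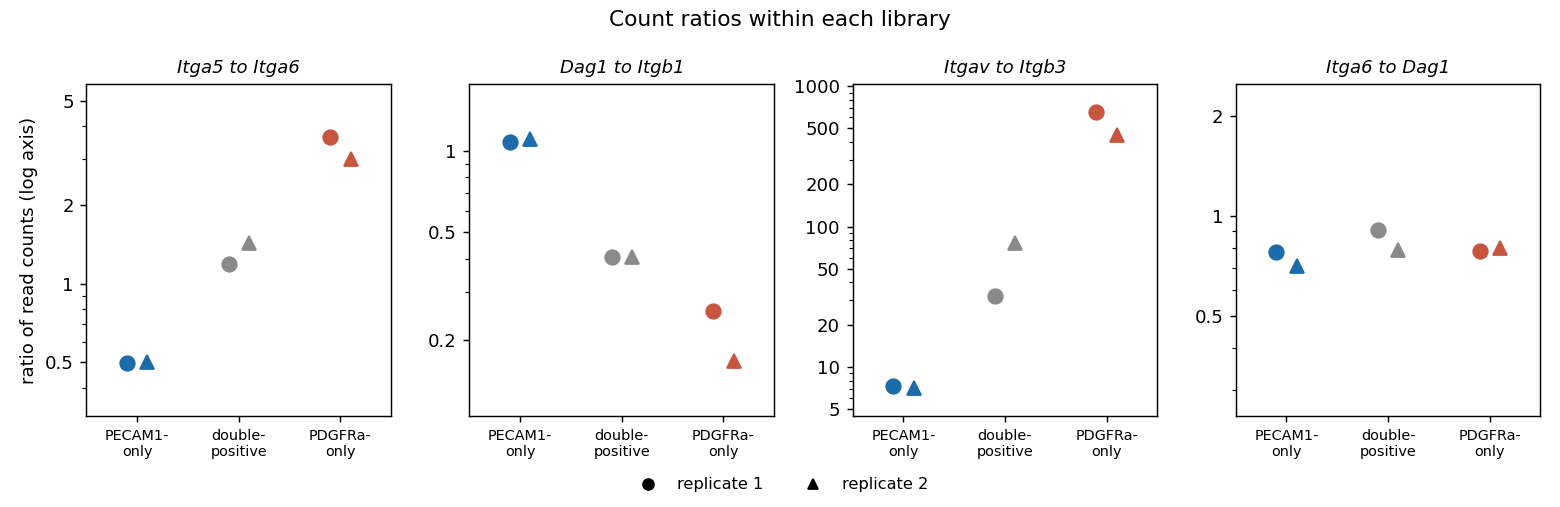
Ratio of the read counts of 2 members within each library (y axis, log scale, own range per panel) by fraction (x axis), circles and triangles for replicates 1 and 2. Itga5 to Itga6 rises from 0.498 and 0.504 to 3.64 and 3.002, and Itga6 to Dag1 stays within 0.709 to 0.906.

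Levels of different genes were set side by side as CPM per kilobase of annotated exon length, the union of all exons. The RNA was amplified before library preparation, and read coverage along transcripts was not examined. Orders and shares of different genes are thus descriptions of reads per annotated length. In the PECAM1-only fraction the order was Itgb1 (73.6 ± 3.76 CPM per kb), Dag1 (51.9 ± 3.73), Itga6 (27.1 ± 0.193), Itga5 (24.8 ± 0.396), Itgav (6.86 ± 0.315), Itga3 (4.08 ± 1.38), Itgb5 (3.71 ± 0.556), Itga9 (2.23 ± 0.910) and Itgb3 (1.74 ± 0.0534). Itga3 and Itgb5 overlapped there, as did Itga9 and Itgb3. In the double-positive fraction it was Itgb1 (127 ± 12.6 CPM per kb), Itga5 (46.8 ± 6.20), Dag1 (32.9 ± 3.18), Itga6 (19.6 ± 0.00431) and Itgav (14.1 ± 3.50). In the PDGFRa-only fraction Itgb1 stood first (144 ± 43.9 CPM per kb), followed by Itga5 (63.3 ± 7.55), Dag1 (18.7 ± 0.0563), Itgav (16.3 ± 3.86) and Itga6 (10.4 ± 0.169), and Itgav overlapped Dag1. Of the summed level per kb of all 18 integrin alpha chains, Itga6 made up 39.4% ± 1.91, 21.6% ± 1.75 and 10.4% ± 0.943 in the PECAM1-only, double-positive and PDGFRa-only fractions, while Itga5 made up 36.1% ± 2.07, 51.3% ± 2.66 and 62.8% ± 2.82 (SD, n = 2). With the longest transcript as the length, Itga6 made up 53.2%, 32.3% and 16.8% and Itga5 26.0%, 41.0% and 54.3%. The falling share of Itga6 and the rising share of Itga5 were thus seen with both lengths. The order of the levels was not the same with both. With the longest transcript, Itga6 (41.0 CPM per kb) stood above Dag1 (36.9) in the double-positive fraction, and Itga6 (56.7) overlapped Dag1 (58.2) in the PECAM1-only fraction. In the PDGFRa-only fraction Itgav (24.9) and Itga6 (21.9) then had higher means than Dag1 (21.0). Among the 9 integrin beta chain genes counted, Itgb1 made up 89.2%, 95.8% and 96.1%.

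**Figure D4:**
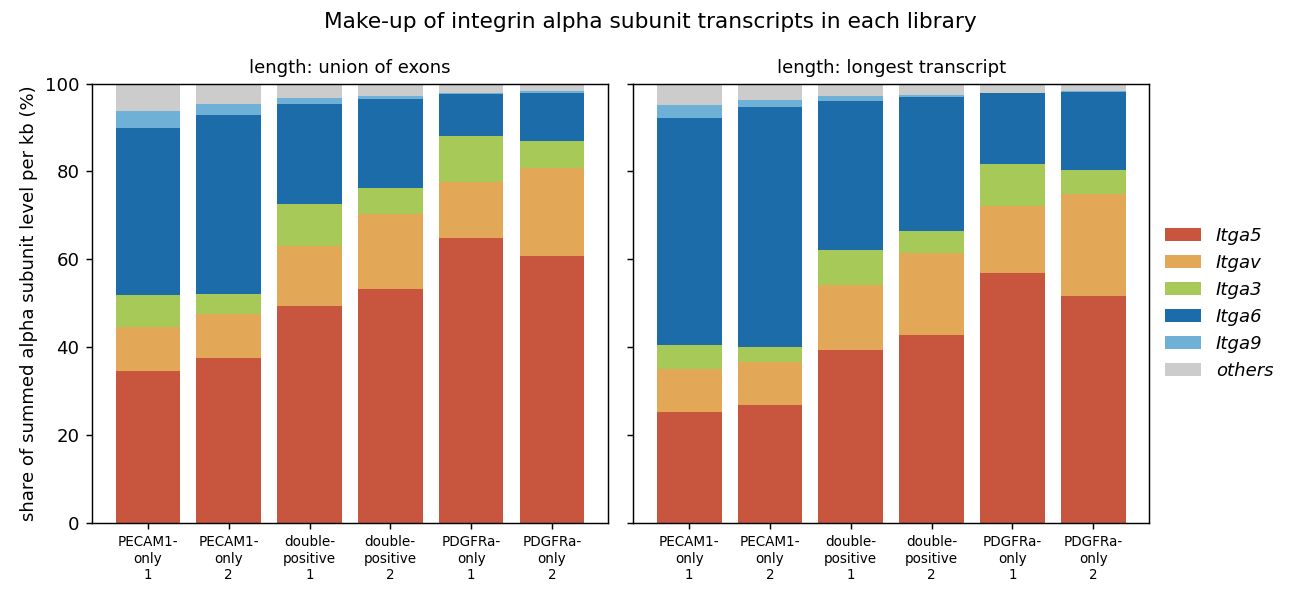
Share of each alpha chain in the summed level per kb of all 18 alpha chains (y axis, percent) in each library (x axis), with the union of exons (left) or the longest transcript (right) as the length. On the left the Itga6 segment shrinks from 39.4% to 10.4% and the Itga5 segment grows from 36.1% to 62.8%, as means of 2 libraries.

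Genes most alike were sought among tested genes with a mean of at least 5 CPM. The measure was the smallest distance between log2 profiles over the 6 libraries, with a prior count of 2, each centred on its own mean. For Itga5, the tested member with the largest rise in the main fit, they were Ubn1, Fam120a and Dvl3, with distances of 0.13, 0.14 and 0.14. Without PDGFRa-only replicate 1, Itgav rose more than Itga5 between the single-positive fractions (log2 fold changes of 1.49 and 1.24). For Itgb3, the tested member with the largest fall in the main fit, they were Tnfrsf22, Xkr5 and Sap30, at 0.41, 0.43 and 0.45. Itgb3 itself lay below the limit on the mean. With 1 and 3 reads in the PDGFRa-only libraries, its profile there leans on the prior count.

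Between the single-positive fractions, the counts of partner genes that follow stand beside the 59.0% of all tested genes that were called, 30.1% higher and 28.8% lower. These lists too were chosen with earlier results of these data known. Integrins not among the members were mostly low. Of 18 further subunits, 10 were tested between the single-positive fractions; 1 was higher in PDGFRa-only, 3 were lower and 6 did not pass, with a median log2 fold change of -0.53; these 4 of 10 are a smaller share than the background. Itgb6, a partner of alphav that activates latent TGF-beta, had 0 reads in both PECAM1-only libraries and 17 and 35 reads (3.82 and 5.29 CPM) in the PDGFRa-only libraries, at least 20.7-fold higher against a floor of 3 counts over the fraction. In the double-positive libraries it had 2.05 and 3.29 CPM, at least 11.8-fold higher. Itgb8, another partner of alphav, had 2 counts in all. The 3 that fell are known from leukocytes. Itgb7 had 7.42 and 6.74 CPM in PECAM1-only and 1.12 and 0.755 CPM in PDGFRa-only libraries, a log2 fold change of -2.94 ± 0.48 (adjusted p = 2.28e-05). Itgal had 59 reads in the PECAM1-only fraction and 2 in the PDGFRa-only fraction, a counting ratio of 24.7 (6.53 to 208). Itgam had 58 and 1, a counting ratio of 48.5 (8.37 to 1948). Their usual partner Itgb2 was not tested, with 17 counts over all libraries.

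Among 26 matrix ligands, 20 were tested between the single-positive fractions; 13 rose, 6 fell and 1 did not pass, with a median log2 fold change of 2.89, against 59.0% of all tested genes called. Between double-positive and PECAM1-only the counts were 13 and 6, against 38.2% of all tested genes. Lama1, a laminin alpha chain, had 36.8 and 53.6 CPM in the PECAM1-only and 8365 and 9258 CPM in the PDGFRa-only libraries (log2 fold change 7.61 ± 0.25, adjusted p = 1.25e-15). The collagen IV chains Col4a1 and Col4a2 of basement membranes rose by 8.27 and 8.24 on the log2 scale (adjusted p = 3.21e-16 and 1.31e-15). Vcam1, which binds alpha4 and alpha9 integrins, is counted in this list but is a cell-surface protein rather than a matrix protein. It had 0 reads in the PECAM1-only and 9 and 36 reads in the PDGFRa-only libraries, at least 17.9-fold higher. The bound was 8.92-fold when PDGFRa-only replicate 2 was left out. Fn1, Lama5 and Spp1 were picked after their values were seen, as ligands of members that went against the direction of most of the list. Fn1 (fibronectin, a ligand of alpha5beta1) had 874 and 1049 CPM in the PECAM1-only, 367 and 429 CPM in the double-positive and 146 and 203 CPM in the PDGFRa-only libraries, a log2 fold change of -2.46 ± 0.19 (adjusted p = 3.52e-10); the deposited RPKM gave -6.78 on the log2(RPKM + 1) scale. Lama5, a laminin alpha chain bound by alpha6beta1, was at -2.47 ± 0.20 (adjusted p = 7.51e-10). Lama3, a further laminin alpha chain also named after its values were seen, fell further. It had 52.0 and 37.5 CPM in the PECAM1-only and 17.6 and 18.3 CPM in the double-positive libraries. In the PDGFRa-only libraries it had 0.673 and 0.604 CPM, from 3 and 4 reads. Spp1 (osteopontin), a ligand of alphav and alpha9 integrins, was at -0.59 ± 0.15 (adjusted p = 0.00249). Vtn, the vitronectin gene, was not tested (30 counts in all).

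Inside the cell, integrins are tied to actin by linker proteins and kinases. Of 24 listed, 21 were tested, and 10 rose, 4 fell and 7 did not pass, with a median of 0.32; 14 of 21 is near the 59.0% of all tested genes. With upper-quartile scaling 8 rose and 7 fell, and with library-size scaling 7 and 9. Zyx, a LIM protein of focal adhesions, had 7.28 and 4.39 CPM in the PECAM1-only and 152 and 145 CPM in the PDGFRa-only libraries (log2 fold change 4.66 ± 0.24, adjusted p = 6.85e-13). The parvins, which bind integrin-linked kinase, rose as well, Parva by 4.39 ± 0.23 and Parvb by 2.44 ± 0.18 (adjusted p = 1.25e-12 and 2.56e-10). Tns1, a tensin that binds beta chains, fell, at -2.63 ± 0.28 (adjusted p = 7.08e-08). Ilk itself had 4 counts in all; its exons share 2106 annotated bases with Taf10 and 355 with Rrp8, both on the other strand, and the strand setting of the counting is not stated.

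Around dystroglycan, 14 dystrophin-associated genes were listed and 10 tested between the single-positive fractions; 7 fell, as Dag1 did, 2 rose and 1 did not pass, with a median of -1.86, against 28.8% of all tested genes lower and 30.1% higher. Over the alternatives 6 to 10 were called. Dtna (dystrobrevin alpha) had 92 and 78 reads in the PECAM1-only and 0 and 2 in the PDGFRa-only libraries, a counting ratio of 71.1 (19.4 to 592). Sgcd, a sarcoglycan, had 29 and 1 reads over the fractions, a ratio of 24.2 (4.02 to 990.2). Sntb2, a syntrophin, was at -2.44 ± 0.19 (adjusted p = 4.00e-10). The 2 that rose were of the same families. The syntrophin Sntb1 had 9.58 ± 3.13 CPM in the PECAM1-only and 37.9 ± 2.43 CPM in the PDGFRa-only fraction. The sarcoglycan Sgce had 13.9 ± 0.517 and 37.3 ± 16.5 CPM in the same order (SD, n = 2). Of 17 genes for the glycosylation of dystroglycan, 17 were tested; 9 rose, 0 fell by edgeR's test (1 at an unadjusted p under 0.05, Pomt1, and 0 by DESeq2) and 8 did not pass, with a median of 0.56; 9 of 17 is near the 59.0% of all tested genes called. With upper-quartile scaling 8 rose and 2 fell, and with library-size scaling 7 and 2. Dpm3, a subunit of dolichol-phosphate-mannose synthase, was at 2.21 ± 0.37 (adjusted p = 4.07e-05), and at 1.66 to 3.11 with 1 library left out. Gmppb, which makes GDP-mannose, was at 2.04 ± 0.35 (adjusted p = 4.69e-05). B4gat1, a glucuronyltransferase that primes the laminin-binding sugar, was at 1.96 ± 0.30 (adjusted p = 1.15e-05), and Dolk, dolichol kinase, at 1.53 ± 0.25 (adjusted p = 2.45e-05). Dpm3, Gmppb and Dolk also serve other glycosylation.

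Of 12 membrane proteins that associate with integrins, 10 were tested; 7 rose, 2 fell and 1 did not pass, with a median of 1.76, against 30.1% of all tested genes higher and 28.8% lower. Plaur, the urokinase receptor, had 1.46 and 3.45 CPM in the PECAM1-only and 66.5 and 92.8 CPM in the PDGFRa-only libraries (log2 fold change 5.03 ± 0.30, adjusted p = 6.47e-12). The tetraspanins Cd63 (3.64 ± 0.19) and Cd151 (2.24 ± 0.17), the latter a known partner of laminin-binding integrins, and the syndecan Sdc4 (2.11 ± 0.16), a fibronectin co-receptor, rose too (adjusted p = 9.07e-13, 3.55e-10 and 3.16e-10).

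**Figure D5:**
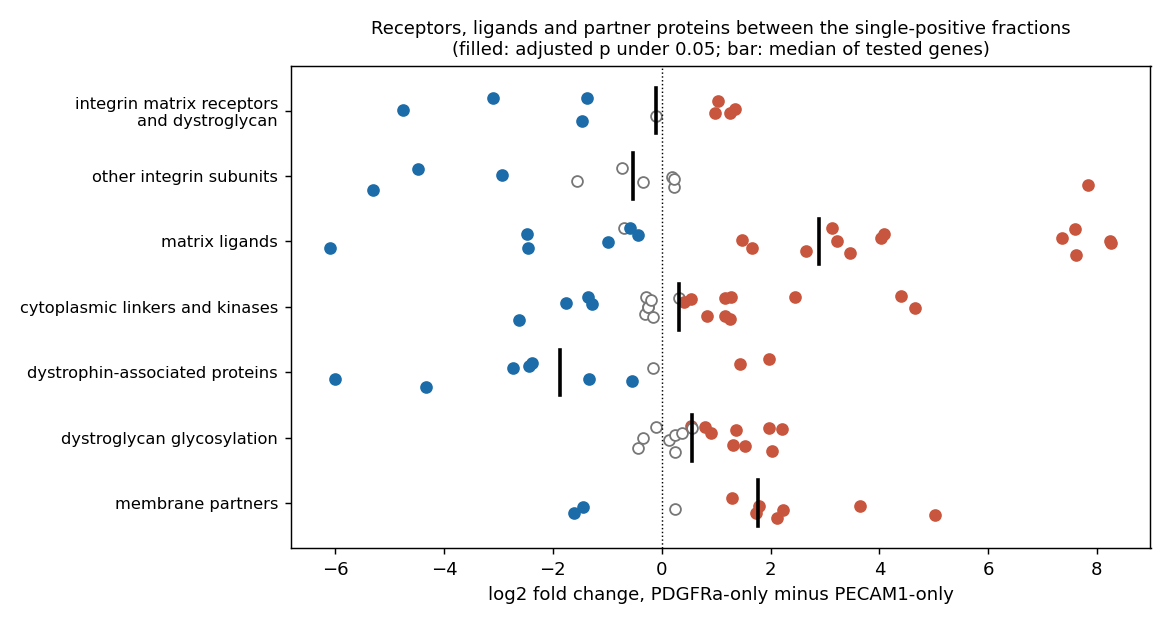
Log2 fold change between PDGFRa-only and PECAM1-only (x axis) of every tested gene of each list (rows); filled points have an adjusted p under 0.05, open ones do not, and bars are medians over the tested genes; the points of Itgb6 and Vcam1, at 0 counts in PECAM1-only, are fitted values. The bar of the matrix ligands is at 2.89, that of the dystrophin-associated genes at -1.86 and that of the 9 receptors at -0.11.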

How the data were processed

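The deposited raw counts per Ensembl gene were used as the authors made them, with no normalization; per the submitters' processing notes, the build was GRCm38 and the tools named, with no role or order, were TopHat2 2.0.8b, HTSeq 0.5.4p3, Bowtie2 2.1.0 and cutadapt 1.2.1. The annotation release, strand setting and any pooling are not given in the sources used here. Per the labels' protocols, RNA was amplified before library preparation, so reads are not independent molecules and counting intervals (95%, exact) and floors (3 counts) cover counting error only. The authors also deposited RPKM values, preprocessed in a way that is not stated, used only as an alternative on log2(RPKM + 1) with limma 3.58.1.

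Genes were kept with filterByExpr (minimum count 10, 13909 genes), scaled by TMM and tested two-sided with edgeR 4.0.16 in R 4.3.3, with 1 mean per fraction over all 6 libraries and 3 residual degrees of freedom. Standard errors are the fold change divided by the square root of the F statistic. Fits were also run on simulated data with few changed genes, equally up and down. As many more genes were called here, that simulation cannot speak to the choice of scaling. Positions and lengths are those of GENCODE M21 (GRCm38). The named genes were all members, both sort genes, the 4 genes of each list with the largest absolute fold change between the single-positive fractions, and the nearest profiles, with a few list genes outside this rule named after their values were seen; 1 gene that this rule names is not reported here. The members and lists were chosen with earlier results of these data known. Alternatives were other scalings (upper quartile, DESeq2 size factors, library size), filters (none, minimum count 50), DESeq2 1.42.0, only 2 fractions in the fit, a replicate block, each library left out, RPKM and another gene length.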

Additional observations from a re-analysis of the deposited data

How the results depend on the processing

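Over 15 alternatives for each of 27 differences of a member, 373 of 405 values kept their direction and their side of the threshold, 21 lost the call, 5 gained one and 6 changed sign. Called under every alternative were 7 members between PDGFRa-only and PECAM1-only (Itga5, Itga6, Itga9, Itgav, Itgb1, Itgb3 and Dag1), 4 between double-positive and PECAM1-only (Itga5, Itgav, Itgb1 and Itgb3) and 2 between PDGFRa-only and double-positive (Itga6 and Dag1). With 1 library left out, 7 to 8, 5 to 8 and 3 to 5 members were called. RPKM gave 2 called members between PDGFRa-only and double-positive in place of 4 and put Itgb3 at -1.69 between the single-positive fractions. The 1 added to each RPKM value shrinks differences between low values, such as those of Itgb3. RPKM also called Itgb5, at -0.52 (PDGFRa-only) and -0.60 (double-positive) against PECAM1-only. The cause of these differences from the main fit was not tested. The 6 changes of sign came when a library was left out, all in differences that had not passed: Itgb5 between the single-positive fractions ranged from -0.30 to 0.11 (0.059 without PECAM1-only replicate 2). Between PDGFRa-only and double-positive, Itga3 ranged from -0.23 to 0.67, Itgav from -0.057 to 0.49 (-0.027 without double-positive replicate 1) and Itgb1 from -0.16 to 0.47.

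Upper-quartile and library-size scaling moved the median of all genes by -0.20 and -0.29 between PDGFRa-only and PECAM1-only. The replicate block gave the same counts of called members (8, 8 and 4); between PDGFRa-only and double-positive it raised the called membrane partners from 3 to 6, and they ranged from 0 (RPKM) to 7 over all alternatives and from 1 to 7 with 1 library left out. Over genes, the deviations of same-numbered libraries from their fraction means had correlations of 0.183 between PECAM1-only and double-positive, and -0.0289 between PECAM1-only and PDGFRa-only. Between double-positive and PDGFRa-only the correlation was 0.132. With 2 libraries per fraction these values cannot decide whether Exp1 and Exp2 pair the samples. The main fit left the replicate out, and the block is given as an alternative. The matrix ligands called between those 2 fractions were 11, 7 with library-size scaling, 3 with RPKM and 5 to 11 with 1 library left out. With the longest transcript as the length, the shares of Itga5 (26.0%, 41.0% and 54.3%) and Itga6 (53.2%, 32.3% and 16.8%) moved beyond the replicate SD, as did those of Itgav (9.79%) and Itgb1 (89.3%) in the PECAM1-only fraction. Depth limits Itgb3, Itga9 and Itga7, with 180, 338 and 12 counts in all.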
